A study of Mus musculus with 30 samples.

Results

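Caveolae were represented by 8 genes, listed by name with earlier results of these data known: Cav1, Cav2, Cavin1, Cavin2, Cavin3, Ehd2, Ehd4 and Pacsin2. All 8 were found among the 21820 protein-coding genes quantified, and all 8 passed the filter on low counts in each comparison. Their transcripts were read in 14 RNA-seq libraries and the open chromatin at their loci in 10 ATAC-seq peak lists, made from mouse brain endothelial cells (ECs) before and after primary culture.

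All animals were adult males. Acutely isolated cells came from brains of Tie2-GFP mice (for the ECs, per the methods, data of cerebrum and of cerebellum combined, the latter from earlier work), in which the Tie2 promoter marks ECs with GFP, and were sorted into GFP-positive ECs (2 RNA-seq and 2 ATAC-seq libraries) and GFP-negative parenchymal cells (2 RNA-seq libraries). Cultured brain ECs were selected with puromycin, which spares cells with the efflux pump P-glycoprotein, and were collected after 8 days. Of the 6 wild-type (WT) cultures read by RNA-seq, replicates 1 and 2 were C57BL/6J cells obtained by papain digestion (method A). WT replicates 3 to 6 were Ctnnb1flex3/+;Tie2-GFP cells obtained by Dounce homogenization followed by collagenase/dispase (method B), so genotype and method changed together. This assignment follows the methods of the study. A figure legend of the study instead gives method B only to the 2 WT cultures sequenced at another facility (replicates 3 and 4), and method A to the other 4. Values split by method below rest on the methods. Beta-catenin-stabilized cultures carried Ctnnb1flex3/+;Pdgfb-CreER;Tie2-GFP, in which 4-hydroxytamoxifen at postnatal day 10 lets the EC-expressed Cre delete exon 3 of a Ctnnb1 allele. The Ctnnb1flex3/+ controls received the same drug and lack Cre, and whether the C57BL/6J animals received it is not clear from the sources used here. There were 4 stabilized RNA-seq libraries, replicates 1 and 2 by method A and replicates 3 and 4 by method B, and 2 stabilized ATAC-seq libraries by method B. Of the 6 WT ATAC-seq libraries, replicates 1 and 2 were method A and the rest method B. A replicate is a culture well, several mice were pooled for each isolation, and successive wells came in pairs, so p-values measure the spread between wells and sorts rather than between animals.

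Total estimated counts ran from 24284843 to 94686456 per RNA-seq library. Mitochondrially encoded transcripts took 10.6 to 11.2% of the counts in acutely isolated ECs and 0.667 to 1.58% in WT cultures. Acutely isolated libraries were single-end with 75 cycles, cultured libraries paired-end with 36 cycles, and WT replicates 3 and 4 paired-end with 150 cycles at another facility. Cldn5 and 5 other EC markers had a summed TPM of 1662 to 1748 in the GFP-positive cells, 698 to 1912 in WT cultures and 4.44 to 17.0 in GFP-negative cells. Pericyte markers (6 genes, among them Rgs5 and Vtn) summed to 506 to 526 TPM in acutely isolated ECs, inside the 351 to 686 of GFP-negative cells, and to 4.19 to 10.2 in WT cultures. Smooth muscle markers (Acta2, Tagln, Cnn1, Myh11) summed to 214 to 233 TPM in acutely isolated ECs, 501 to 3068 in WT cultures and 3585 to 5266 in GFP-negative cells, with Myh11 at no more than 3.11 TPM in any WT culture. Erythrocyte markers summed to 4756 to 31520 TPM in acutely isolated ECs and to at most 1.39 TPM in WT cultures. Caveolar genes are also active in mural cells, and what part these cells have in the values below was not tested. In bulk RNA, fewer cells of a type and less RNA per cell cannot be told apart. The gene-level value of Ctnnb1 does not show the deletion of exon 3. Axin2, a transcriptional target of beta-catenin, was at 0.0998 to 0.269 TPM in WT cultures and 0.974 to 1.86 TPM in stabilized cultures, without overlap. In acutely isolated ECs Axin2 was at 47.0 and 51.8 TPM. Lef1, also taken by the study as a target, overlapped, with 1.615 to 18.8 TPM in WT and 4.81 to 10.25 TPM in stabilized cultures. In acutely isolated ECs Lef1 was at 47.4 and 205 TPM. The study found its beta-catenin-regulated genes very low in stabilized cultures, which to the authors implied that the pathway was not activated.

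Caveolae are flask-shaped invaginations of the plasma membrane that are abundant in most endothelia and sparse in the ECs of the blood-brain barrier, where the lipid transporter Mfsd2a is known to restrain caveolar transcytosis. Caveolins are wedged into the inner membrane leaflet and oligomerize, and cavins then form a coat around them. EHD ATPases gather at the neck and keep the invagination at the surface, and the F-BAR protein pacsin 2 bends the membrane during assembly.

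The culture comparison asked which of these components differ between acutely isolated ECs and WT ECs after 8 days in culture. Cav1 and Cavin3 rose several-fold in culture, Pacsin2 and Ehd4 rose on counts but did not pass with transcript length as an offset, and Cav2, Cavin1, Cavin2 and Ehd2 did not pass the test. Of the 8 genes, 4 were called higher in culture and 0 lower. A call needed an adjusted p under 0.05 (quasi-likelihood test of edgeR, p-values adjusted over all genes by Benjamini-Hochberg), a change of more than 2-fold and at least 5 TPM in each library of the higher group. Over all 13784 genes tested, 13.5% were called higher and 10.2% lower. The 8 genes had a median log2 fold change of 1.42, and all genes one of 0.10. With transcript length as an offset these medians were 0.52 and 0.03. The length used was the effective length that salmon assigned in each library, which also carries its bias correction. DESeq2 called 5 of the 8 higher and 0 lower (14.2% and 12% of all genes), and edgeR with transcript length as an offset called 3 higher and 0 lower (12.9% and 13.2% of all genes). With the replicate block over replicates 1 and 2, 4 were called higher and 0 lower (15.8% and 13.3% of all genes).

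Cav1 (chr6:17306335-17341452, plus strand, GRCm38) encodes caveolin-1, the protein without which endothelial caveolae do not form. It was at 162 and 179 TPM in the acutely isolated ECs and at 22.2 and 35.4 TPM in the GFP-negative cells. In the 6 WT cultures the lowest value was 1382 TPM, the median 2109 and the highest 4240, and the stabilized cultures held 2262, 2252, 2128 and 1975 TPM. Every cultured library lay above both acutely isolated ones, and among all protein-coding genes Cav1 ranked 325th and 332nd in acutely isolated ECs and between 11th and 21st in WT cultures. The fitted difference was 8.89-fold (log2 fold change 3.15, SE 0.49, adjusted p = 0.0012, edgeR). It was 6.60-fold with method A cultures alone and 10.0-fold with method B cultures alone.

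Cav2 (chr6:17281185-17289115, plus strand), which lies just upstream of Cav1, encodes caveolin-2, a partner that joins caveolin-1 oligomers. It was at 63.9 and 125 TPM in acutely isolated ECs, at 157, 218, 1117, 1052, 340 and 394 TPM in WT cultures 1 to 6, and at 489, 505, 359 and 350 TPM in stabilized cultures. All cultures exceeded both acutely isolated libraries, and the WT cultures split by experiment, with method A lowest and the 150-cycle libraries highest. The fitted rise of 4.37-fold did not pass the test (log2 fold change 2.13, SE 0.85, adjusted p = 0.069, edgeR). Method B cultures alone gave 2.54 on the log2 scale with a call (adjusted p = 0.024, edgeR), where 15.1% of all genes were called higher. Method A cultures alone gave 0.62 without one (adjusted p = 0.080), where 15.2% of all genes were called higher. With the transcript length offset the value was 1.73, also with a call (adjusted p = 0.025, edgeR). The effective length that salmon assigned to Cav2 was 832 and 862 bases in acutely isolated ECs, 1371 to 1571 in 36-cycle WT cultures and 3273 and 3144 in WT replicates 3 and 4. A single transcript of 2733 bases, Cav2-201, took at least 92.2% of the gene in WT cultures and 97.1% in acutely isolated ECs. This length thus differed between libraries with little change of transcript.

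**Figure D1:**
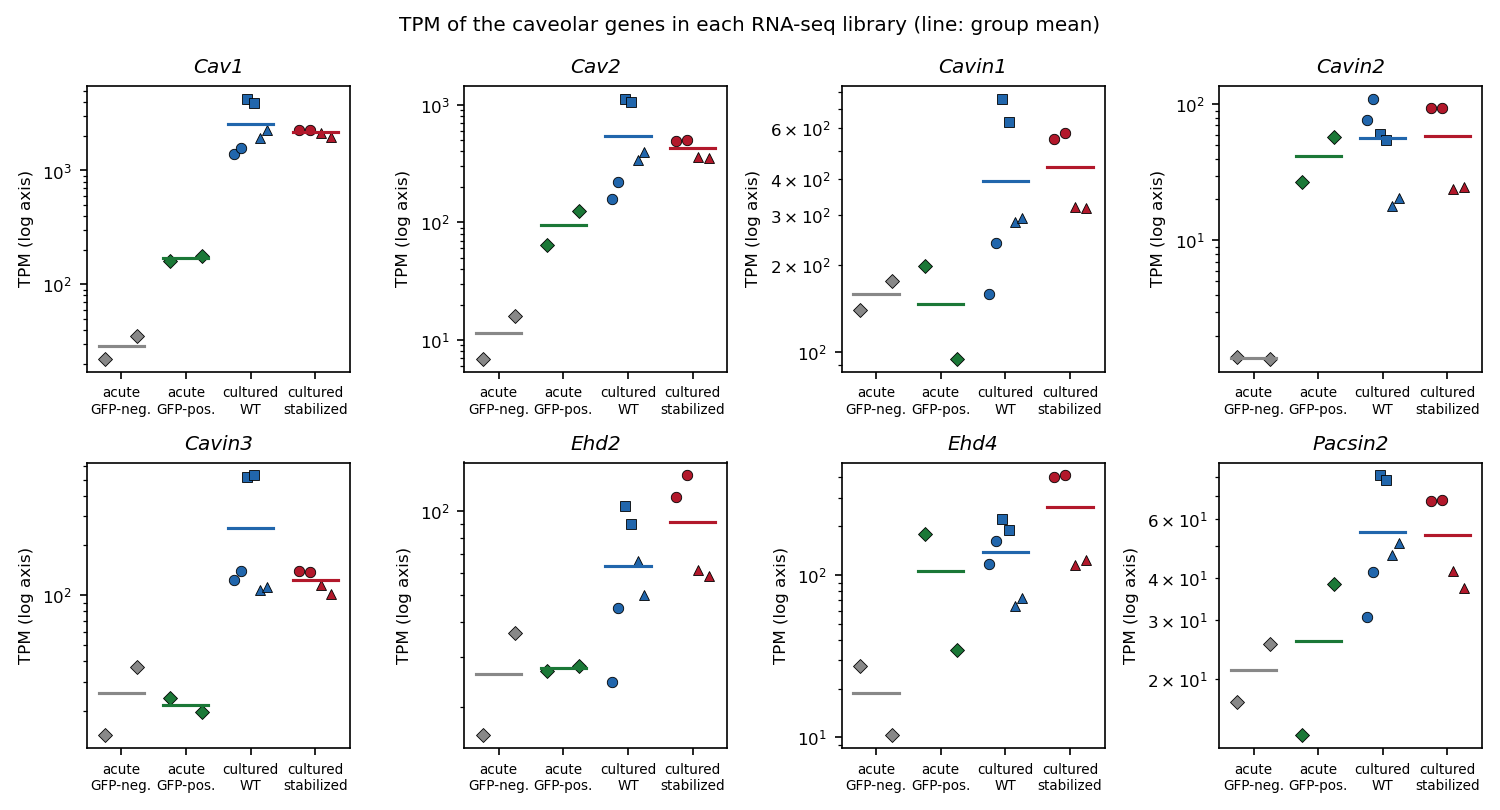
TPM (log axis) of each caveolar gene in the 14 RNA-seq libraries by group, with 1 point per library and a line at the group mean. Diamonds are acutely isolated cells, circles method A cultures, triangles method B cultures of 36 cycles and squares method B cultures of 150 cycles. The 6 WT points of Cav1 lie between 1382 and 4240 TPM and the GFP-positive points at 162 and 179 TPM. For Cavin1, Cavin2, Ehd2, Ehd4 and Pacsin2 the GFP-positive and WT points overlap.

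Cavin1 (chr11:100956733-100970887, minus strand) encodes the cavin required for the caveolar coat. Acutely isolated ECs held 198 and 94.5 TPM, and GFP-negative cells 140 and 177 TPM. The WT cultures ranged from 158 TPM through a median of 288 to 758 TPM, and the stabilized cultures held 549, 579, 320 and 317 TPM. WT replicate 1 fell below the higher of the acutely isolated libraries, so the groups overlapped. The fitted difference of 0.39 on the log2 scale (SE 0.38) did not pass the test (adjusted p = 0.43, edgeR). In the first acutely isolated library a 658-base non-coding transcript, Cavin1-202, took 55.7% of the TPM of the gene, and in the second it was listed at 0.

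Cavin2 (chr1:51289126-51302960, plus strand) encodes serum deprivation-response protein, a cavin that shapes the membrane and is enriched in endothelium. It was nearly absent from GFP-negative cells, at 1.39 and 1.35 TPM, and held 26.8 and 57.4 TPM in acutely isolated ECs. WT cultures 1 to 6 were at 77.4, 110, 60.2, 54.7, 17.8 and 20.6 TPM and stabilized cultures 1 to 4 at 93.9, 93.7, 23.7 and 24.5 TPM. The acutely isolated ECs thus lay inside the range of the cultures, with method A wells above them and the 36-cycle method B wells below. The fitted difference was -0.80 on the log2 scale (SE 0.69, adjusted p = 0.37, edgeR). It was 0.22 with method A cultures alone, which is the opposite direction (adjusted p = 0.45), and -1.84 with method B cultures alone, a call (adjusted p = 0.0032, edgeR), where 9.85% of all genes were called lower.

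Cavin3 (chr7:105480083-105482300, minus strand) encodes a cavin that binds protein kinase C delta and caveolin-1. It held 23.9 and 19.8 TPM in acutely isolated ECs and 14.3 and 36.9 TPM in GFP-negative cells. In WT cultures it ranged from 107 TPM through a median of 131 to 529 TPM, and in stabilized cultures it held 141, 137, 115 and 102 TPM. No culture overlapped either acutely isolated group. The fitted rise was 5.21-fold (log2 fold change 2.38, SE 0.40, adjusted p = 0.0018, edgeR). A gene model of the annotation class TEC on the opposite strand, Gm45667, shares 374 bases with its exons. Whether the libraries kept strand is not given in the sources used here, so reads of the shared bases may belong to either gene.

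Ehd2 (chr7:15946958-15967567, minus strand) encodes the ATPase that rings the caveolar neck. Acutely isolated ECs held 26.9 and 28.0 TPM, GFP-negative cells 15.8 and 36.6, WT cultures 24.5 to 104 with a median of 58.1, and stabilized cultures 112, 134, 61.3 and 58.5. Only WT replicate 1 lay below the acutely isolated ECs. The fitted value on counts was -0.39 (log2, SE 0.37, adjusted p = 0.42, edgeR) and with the transcript length offset 0.48 (adjusted p = 0.35), which is the opposite direction.

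Ehd4 (chr2:120089175-120154606, minus strand) encodes a relative of EHD2 that acts in endosomal trafficking and can also sit at caveolae. It was the least even gene in acutely isolated ECs, with 178 TPM in the first library and 34.6 TPM in the second, while WT cultures ranged from 64.8 TPM through a median of 140 to 222 TPM. Stabilized cultures held 403, 411, 115 and 124 TPM, and GFP-negative cells 27.5 and 10.3 TPM. The gap between the acutely isolated libraries sat on a 541-base non-coding transcript, Ehd4-202, with 162.9 TPM and 91.5% of the gene in the first and 10.5 TPM and 30.2% in the second. The full-length coding transcript Ehd4-201 (3730 bases) was at 5.56 and 10.7 TPM in these libraries and averaged 108.5 TPM in WT cultures. A 393-base non-coding transcript, Ehd4-203, took 5.39 to 38.9% of the gene in acutely isolated ECs and was at 0 in WT cultures. On counts the gene was called higher in culture (log2 fold change 1.36, SE 0.49, adjusted p = 0.049, edgeR). The call was lost without any single WT replicate (adjusted p from 0.054 without replicate 4 or 5 to 0.075 without replicate 1) and without the second acutely isolated library (0.84 on the log2 scale, adjusted p = 0.27), and with the transcript length offset the value was -0.54 (adjusted p = 0.50).

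Pacsin2 (chr15:83375607-83464606, minus strand) encodes the F-BAR protein of the caveolar neck. It held 13.6 and 38.5 TPM in acutely isolated ECs, 17.2 and 25.5 in GFP-negative cells, 30.7 to 80.7 with a median of 48.8 in WT cultures, and 67.6, 68.1, 42.0 and 37.3 in stabilized cultures. WT replicate 1 lay below the higher acutely isolated library and the other WT wells above both. The count-based difference was 2.80-fold and called (log2 fold change 1.49, SE 0.34, adjusted p = 0.0074, edgeR). With the transcript length offset it was 0.52 (adjusted p = 0.25, edgeR) and not called. The effective length of the gene was 878 and 768 bases in acutely isolated ECs and 3067 to 3343 bases in WT cultures. Without the first acutely isolated library the call was lost (1.16 on the log2 scale, adjusted p = 0.052, edgeR).

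**Figure D2:**
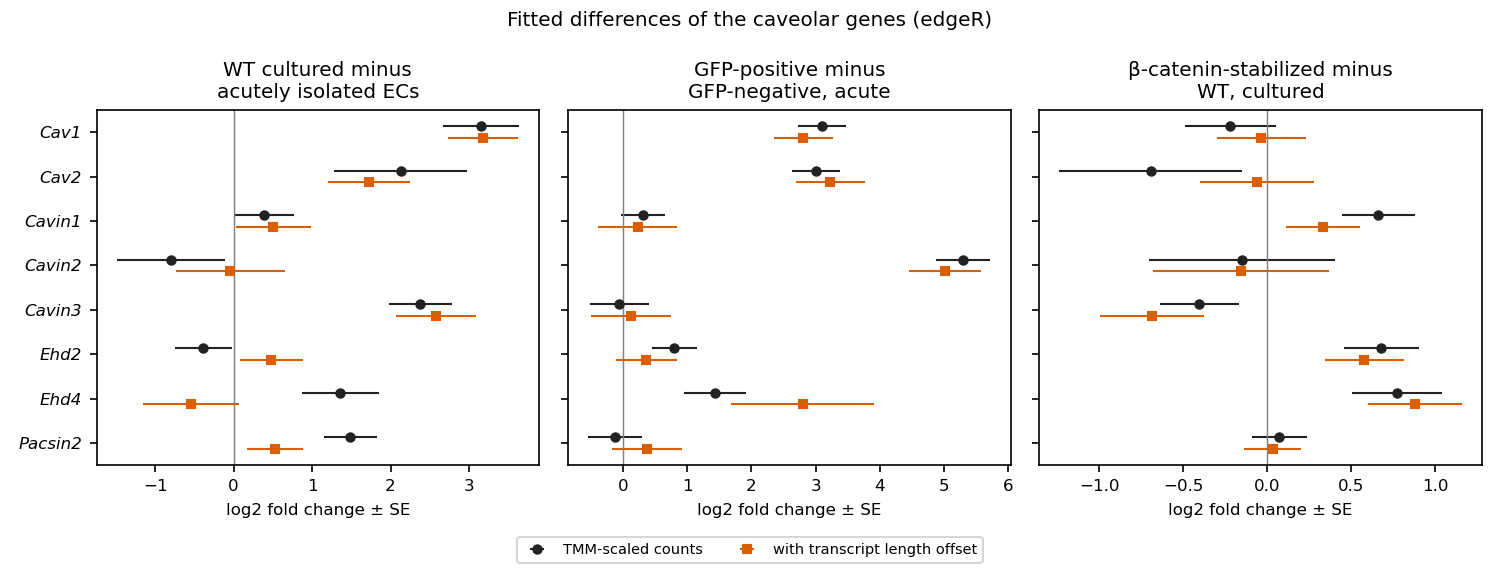
Log2 fold changes with SE (bars) of the 8 genes in the comparisons of WT cultured with acutely isolated ECs, of GFP-positive with GFP-negative cells, and of stabilized with WT cultures, from counts scaled by TMM (black) and with transcript length as an offset (orange). In the culture comparison the black and orange points of Cav1 (3.15 and 3.17) and Cavin3 (2.38 and 2.58) lie close, while those of Ehd4 (1.36 and -0.54) and Pacsin2 (1.49 and 0.52) lie apart.

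Cav1 and Cavin3 were called higher in all 19 alternative settings of the culture comparison, Pacsin2 in 16, Ehd4 in 7 and Cav2 in 5. When wells of each experiment were summed to give 3 WT samples, 2 genes were called, Cav1 (adjusted p = 0.018) and Cavin3 (adjusted p = 0.017, edgeR). Pacsin2 was then at an adjusted p of 0.050 and Ehd4 at 0.12.

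The make-up of the caveolar transcript pool differed with culture. The summed TPM of the 8 genes was 693 and 577 in acutely isolated ECs, 246 and 339 in GFP-negative cells and 2071 to 7098 in WT cultures. Cav1 made up 23.3 and 31.0% of this sum in acutely isolated ECs and 59.7 to 69.6% in WT cultures. Cavin1 led the sum in GFP-negative cells, with 57.1 and 52.1%. For each transcript of Cavin1 there were 0.816 and 1.89 of Cav1 in acutely isolated ECs, 5.59 to 8.73 in WT cultures and 3.89 to 6.65 in stabilized cultures, without overlap between acute and cultured libraries. For each transcript of Cav2 there were 2.53 and 1.43 of Cav1 in acutely isolated ECs and 3.72 to 8.79 in WT cultures. Short non-coding transcripts enter these sums in the first acutely isolated library, with 110 TPM of Cavin1-202 and 162.9 TPM of Ehd4-202. The coding transcript Cavin1-201 alone was at 87.7 and 94.5 TPM in the acutely isolated libraries, so the lower of their Cav1 to Cavin1 ratios rests on Cavin1-202. These are shares and ratios of TPM, given as a description.

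**Figure D3:**
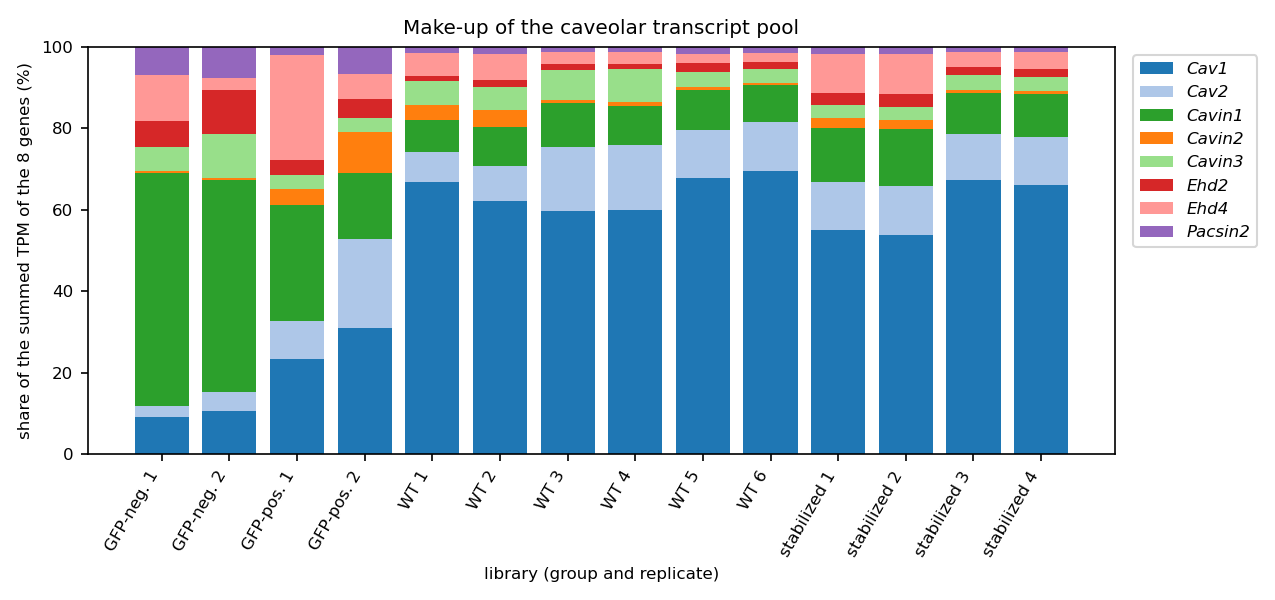
Share of the summed TPM of the 8 caveolar genes taken by each gene (%), with 1 bar per RNA-seq library. Cav1 (dark blue) takes 59.7 to 69.6% in WT cultures against 23.3 and 31.0% in acutely isolated ECs, and Cavin1 (green) takes 57.1 and 52.1% in the GFP-negative libraries.

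The comparison of GFP-positive with GFP-negative cells asked which components mark the endothelium in the intact brain. Cav1, Cav2 and Cavin2 were higher in ECs: 3 of the 8 genes were called higher and 0 lower, where 8.3% of 15102 genes were called higher and 7.56% lower. DESeq2 also called these 3 higher and 0 lower (10.1% and 9.28% of all genes). Over all genes, edgeR called 1254 higher and 1142 lower, against 930 and 1419 with library size scaling and 657 and 897 with transcript length as an offset (4.35% and 5.94%). With the replicate block the same 3 were called (6.74% higher and 6.98% lower over all genes). Cavin2 had the largest difference of the 8, 39.4-fold (log2 fold change 5.30, SE 0.42, adjusted p = 0.0017, edgeR). Cav1 was 8.57-fold higher (log2 fold change 3.10, SE 0.38, adjusted p = 0.0036) and Cav2 8.01-fold higher (SE 0.37 on the log2 scale, adjusted p = 0.0037). These 3 calls were made in each of the 11 alternative settings. Cavin1 (0.31, SE 0.34, adjusted p = 0.54), Cavin3 (-0.06, SE 0.46, adjusted p = 0.94), Ehd2 (0.80, SE 0.35, adjusted p = 0.14) and Pacsin2 (-0.13, SE 0.42, adjusted p = 0.84) did not pass the test. Ehd4 was at 1.43 (SE 0.48, adjusted p = 0.071) and was called in 2 of 11 settings, the fit of all 14 libraries (adjusted p = 0.033) and the fit without the second GFP-positive library (adjusted p = 0.014, edgeR). The GFP-negative cells held 3585 to 5266 TPM of smooth muscle markers beside their 140 and 177 TPM of Cavin1, and the part of mural cells in the latter was not tested.

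Transcript models separated Pacsin2 in culture from Pacsin2 in the brain more sharply than its level did. GENCODE M21 places 4 of its 11 transcripts at an outer start site (83464606 on chromosome 15) and 2, Pacsin2-202 and Pacsin2-210, at an inner start site within the gene (RefSeq position 83432850). The inner transcripts were listed at 0 in both acutely isolated EC libraries and took 1.14 and 0.205% of the TPM of Pacsin2 in GFP-negative cells. They took 26.7% in WT replicate 1, 46.1 to 62.7% in the other 5 WT cultures, and 39.7, 52.9, 49.0 and 38.6% in stabilized cultures. Each cultured library thus lay above each acutely isolated one. In level, the inner start site gave 8.22 to 49.1 TPM in WT cultures, beside 18.8 to 33.9 TPM from the outer start site, which was 7.81 and 38.0 TPM in acutely isolated ECs. Much of the latter sat on a 640-base outer transcript, Pacsin2-204, with 34.9 to 76.6% of the gene in acutely isolated ECs and 0.859 to 22.7% in WT cultures. The longer outer transcripts were lower in acutely isolated ECs than in WT cultures. Pacsin2-206 averaged 5.28 and 12.4 TPM there, and Pacsin2-203 0.49 and 6.04 TPM. The split rests on how salmon shared reads between models, since 161 of the 3195 exonic bases of the inner transcripts lie in no other Pacsin2 transcript. An estimate of 0 can also be a failed estimate. Read format differed as well, single-end in the acutely isolated and paired-end in the cultured libraries. This pattern was noticed after the values were seen and is given without a test.

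Open chromatin at the same start sites was read by ATAC-seq, in which peaks mark accessible DNA. Over the outer start site a peak was present in all 10 libraries, with a fold enrichment over background of 17.7 and 16.1 in acutely isolated ECs and 13.8 to 22.0 in WT cultures. Over the inner start site there was no peak in either acutely isolated library, also within 500 bases among all peaks deposited, and a peak in all 6 WT cultures, at 16.5, 11.7, 21.3, 19.8, 19.6 and 20.6. Both stabilized libraries had it, at 17.1 and 18.3. The gained region is chr15:83432664-83433297. Its enrichment was below that over the outer start site of the same library in each cultured library except WT replicate 3.

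**Figure D4:**
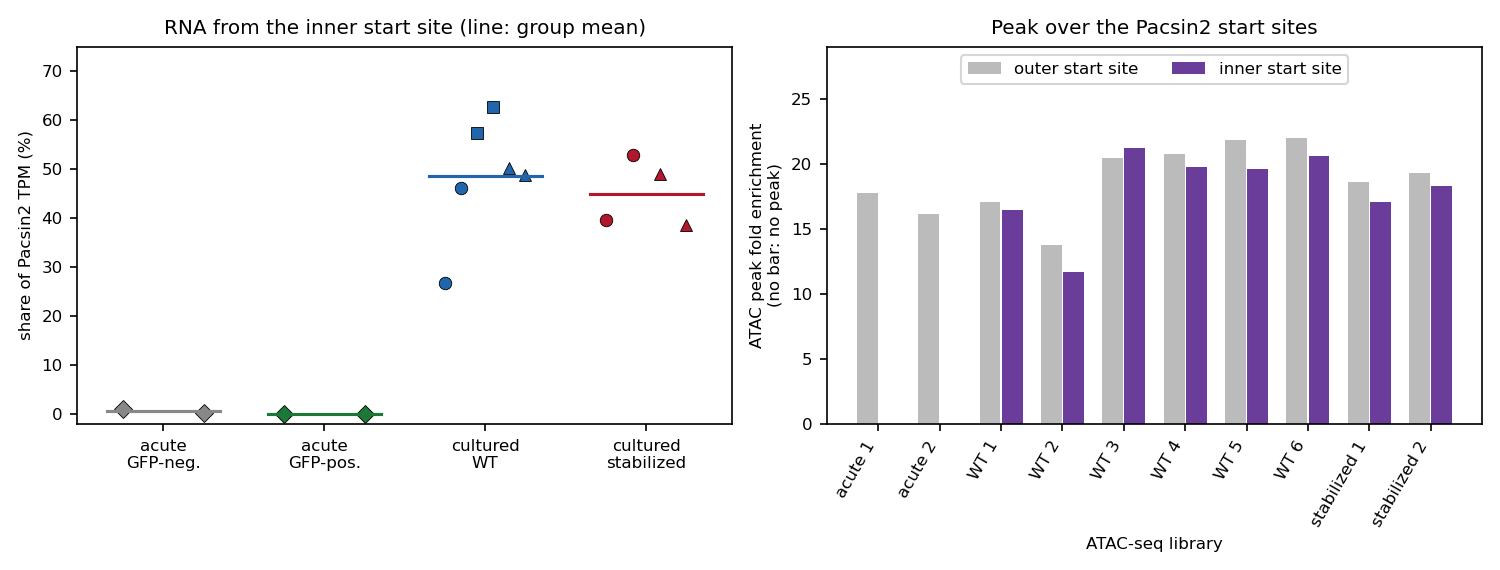
Left, share of Pacsin2 TPM (%) from transcripts of the inner start site in each RNA-seq library, with a line at the group mean and point shapes as for the TPM plot. Right, fold enrichment of the ATAC-seq peak over the outer (grey) and inner (purple) start site in each of 10 libraries, where a missing bar means no peak. Both acutely isolated EC libraries are at 0% on the left and have no purple bar on the right, and all 8 cultured ATAC-seq libraries have one between 11.7 and 21.3.

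The 250 bases upstream of the outer and inner Pacsin2 start sites are shown (RefSeq, GRCm38.p6, minus strand, written 5′ to 3′, outer chr15:83464607-83464856 and inner chr15:83432851-83433100). They were chosen because the estimated share and the peak of the inner site differed between acutely isolated and cultured libraries. A middle RefSeq start site (83447880) is not shown. Its region had a peak in neither acutely isolated library, in 5 of 6 WT libraries and in both stabilized ones. Capitals mark matches on either strand to the letters TGANTCA (AP-1), GGAATG (TEAD), CTTTGA (TCF/LEF) or GGGCGG (GC box).
Pacsin2 outer: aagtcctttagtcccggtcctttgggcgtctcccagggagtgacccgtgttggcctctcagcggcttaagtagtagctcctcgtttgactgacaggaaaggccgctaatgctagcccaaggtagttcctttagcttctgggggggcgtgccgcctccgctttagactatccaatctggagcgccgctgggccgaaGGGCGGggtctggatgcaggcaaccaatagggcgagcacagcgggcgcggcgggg
Pacsin2 inner: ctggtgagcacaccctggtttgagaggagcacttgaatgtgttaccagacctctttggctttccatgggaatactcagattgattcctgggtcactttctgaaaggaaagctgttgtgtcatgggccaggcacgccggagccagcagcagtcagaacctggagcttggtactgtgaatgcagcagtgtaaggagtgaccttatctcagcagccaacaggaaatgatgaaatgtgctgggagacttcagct
The outer sequence held 1 GC box and the inner one none of these letters. A match is a description of the letters and not a bound site.

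RefSeq windows from 250 bases before to 50 after a start site were at hand for 7 of the 8 genes, 11 windows in all. GC box letters were in 7 of the 11, against 35.7% of 32851 promoters of the same length. AP-1 letters were in 2 (Cav2 and a middle start site of Pacsin2, against 7.81% of all), TEAD letters in the 2 overlapping Cavin1 windows (against 14.7%) and TCF/LEF letters in 0 (against 16% of all).

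Cav1 also has 2 start sites, and the share of the inner one was higher in every WT culture than in acutely isolated ECs. The outer one gives full-length caveolin-1 and the inner one, at 17307640, starts transcripts Cav1-202 and Cav1-208. The inner start site took 6.38 and 8.18% of the TPM of Cav1 in acutely isolated ECs, 10.0 to 14.3% in WT cultures and 8.99 to 12.2% in stabilized cultures, and 32.8 and 46.7% in GFP-negative cells. Of its reads, the inner start site took 1.93 to 6.60% in acutely isolated ECs and 9.38 to 15.1% in WT cultures. These shares are given without a test. A peak lay over both start sites in all 10 libraries. At the outer site its fold enrichment was 10.5 and 9.29 in acutely isolated ECs and 7.14 to 11.8 in WT cultures, and at the inner site 7.26 and 8.38 in acutely isolated ECs and 3.27 to 5.81 in WT cultures, lower in each culture.

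Peak regions were merged over the 10 libraries within each gene and 10000 bases to either side. A region was called gained where all 6 WT cultures and neither acutely isolated library had a peak, and lost in the opposite case. The 8 genes held 93 regions, of which 11 were gained and 1 was lost. The lost region, in Cav2, had an enrichment of 3.41 and 3.53 in the acutely isolated libraries and was not counted at the stricter limits (fold enrichment over 4, −log10 q over 5), where 11 regions were gained and 0 lost. Without acutely isolated replicate 1 or 2, 2 and 4 regions were lost. Over 88856 regions of all protein-coding genes 7.69% were gained and 2.33% lost, against 11.8% and 1.08% of the caveolar regions. The outermost start site of each of the 8 genes lay in a region with a peak in both acutely isolated and all 6 WT libraries, although in WT replicate 1 the peak did not reach the outermost start of Cavin1 itself. Of the gained regions 7 were in Pacsin2, 2 in Cav1, 1 downstream of Cavin1 and 1 upstream of Cavin3, and both stabilized libraries had a peak in all 11. Cav2, Cavin2, Ehd2 and Ehd4 had no gained region. Thus 4 of 8 genes had a gained region, where 27.5% of 18620 genes did, and 1 of 8 a lost region, where 9.8% did. Peak calls follow depth: acutely isolated libraries held 31779 and 37384 peaks and WT cultures 33122 to 98732. Without WT replicate 2, the library with 33122 peaks, 21 regions were gained, with 15.5% of all regions.

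**Figure D5:**
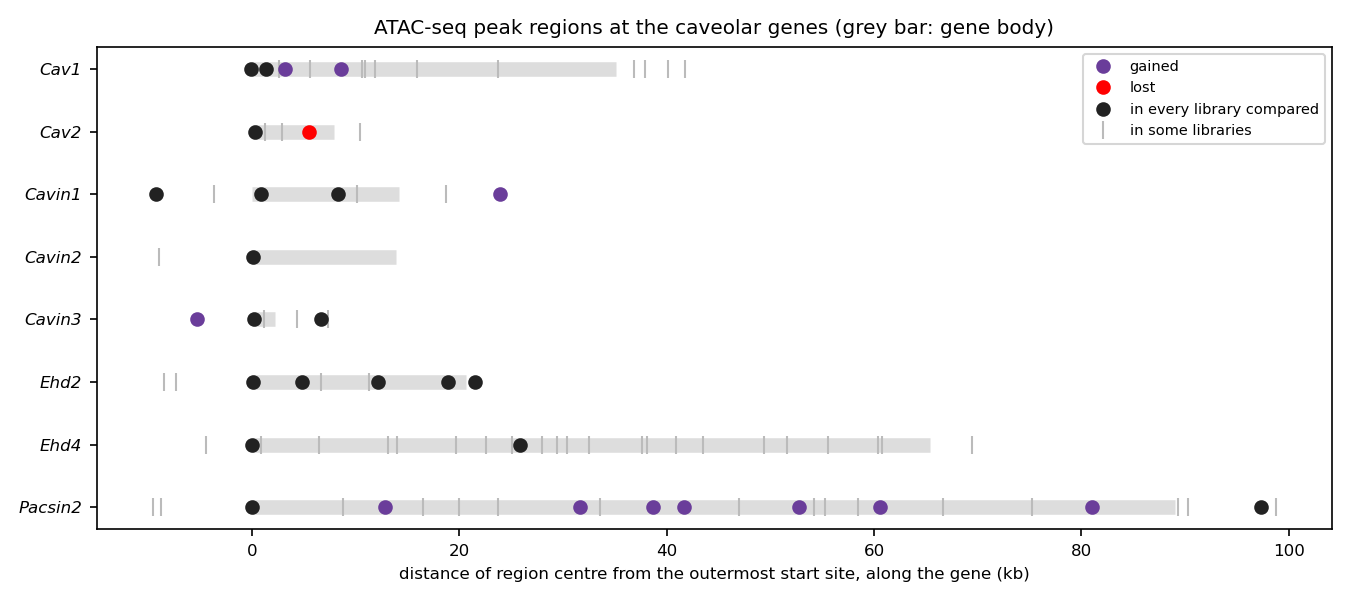
ATAC-seq peak regions at the 8 caveolar genes by distance (kb) of the region centre from the outermost start site, along the direction of transcription, with the gene body as a grey bar. Purple dots were gained in culture, the red dot was lost, black dots had a peak in both acutely isolated and all 6 WT libraries, and grey ticks had peaks in some libraries. A black dot sits at 0 kb in each gene or within 1 kb of it, and 7 of the 11 purple regions lie in Pacsin2.

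The gained regions in the first part of Cav1 and the lost region in Cav2 are shown as 300 bases at the summit of the strongest peak, because they are the gained and lost regions of the caveolin locus, the lost one only at the limits of the study (GRCm38, plus strand, capitals as above).
Cav1 gained, chr6:17309325-17309624: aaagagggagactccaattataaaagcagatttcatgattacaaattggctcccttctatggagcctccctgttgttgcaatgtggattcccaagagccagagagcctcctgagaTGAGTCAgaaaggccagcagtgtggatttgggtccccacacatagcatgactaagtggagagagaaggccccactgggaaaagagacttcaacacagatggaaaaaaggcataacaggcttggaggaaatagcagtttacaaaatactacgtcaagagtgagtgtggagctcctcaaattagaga
Cav1 gained, chr6:17314806-17315105: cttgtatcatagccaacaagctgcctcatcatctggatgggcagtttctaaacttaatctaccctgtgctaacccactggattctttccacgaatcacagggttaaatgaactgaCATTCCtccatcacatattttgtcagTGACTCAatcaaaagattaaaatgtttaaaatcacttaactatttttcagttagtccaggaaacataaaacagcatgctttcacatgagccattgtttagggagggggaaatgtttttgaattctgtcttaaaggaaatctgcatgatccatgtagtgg
Cav2 lost, chr6:17286501-17286800: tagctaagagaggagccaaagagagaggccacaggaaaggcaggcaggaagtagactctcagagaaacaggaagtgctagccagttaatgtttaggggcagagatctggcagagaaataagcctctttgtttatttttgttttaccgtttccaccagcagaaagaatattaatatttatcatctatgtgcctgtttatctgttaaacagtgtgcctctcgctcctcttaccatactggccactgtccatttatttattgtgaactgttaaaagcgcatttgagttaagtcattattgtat
All 3 lie within the gene bodies, and the printed bases overlap no annotated exon. Each Cav1 sequence held AP-1 letters, the second also TEAD letters, and the Cav2 sequence none of the 4 sets. Over the 11 gained caveolar regions AP-1 letters were in 4 (36.4%), against 50.6% of all 6836 gained regions, 6.28% of all lost regions and 25.7% of all regions. Caveolar regions with a peak in both acutely isolated and all WT libraries held them in 6 of 18 (33.3%), against 10.8% of all such regions.

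The comparison of stabilized with WT cultures asked whether these genes differ in culture between ECs with and without the stabilizing Ctnnb1 allele. How far beta-catenin signaling was active in the stabilized cultures was not tested here, so the comparison does not show what signaling does to these genes. None of the 8 was called, and neither was any of the other genes: 0% of 12958 genes were called higher and 0% lower by edgeR, with 1344 at an unadjusted p under 0.05, and DESeq2 called 15 higher (0.116%) and 3 lower (0.0232%), none of them among the 8. The largest fitted values were Ehd4 at 0.77 (SE 0.27, adjusted p = 0.43), Ehd2 at 0.68 (SE 0.22, adjusted p = 0.42) and Cavin1 at 0.66 (SE 0.22, adjusted p = 0.42). Cav1 was at -0.22 (SE 0.27, adjusted p = 0.78). Same-numbered replicates shared their deviations, although replicates 1, 3 and 4 matched the other number of their pair of wells (2, 4 and 3) best. The pairing also sets stabilized replicates 3 and 4 (36 cycles) against WT replicates 3 and 4 (150 cycles at another facility). With the replicate number as a block over replicates 1 to 4 edgeR called 132 genes higher (0.989%) and 55 lower (0.412%), again none of the 8. After summing wells within experiments it called 0 and 0, with 76 genes at an unadjusted p under 0.05. Cavin1 (0.88 on the log2 scale, adjusted p = 0.047) and Ehd2 (0.92, adjusted p = 0.046) passed on adjusted p with the block but not on the 2-fold limit.

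For most of the caveolar genes the fitted difference between stabilized and WT cultures was not the same in the method A as in the method B cultures. In the 8 cultures of 36 cycles, the interaction of stabilization with method passed an adjusted p of 0.05 for 7 of the 8 genes, all but Cav1, where 49.6% of 13356 genes did. With transcript length as an offset 6 of the 8 passed, where 39.6% of all genes did. With method A, Ehd2 was 1.06 higher on the log2 scale and called (adjusted p = 0.0018), the only call among the 8, while 5.39% of all genes were called higher and 0.918% lower. With method B none of the 8 was called, and 1.08% of all genes were called higher and 0.28% lower. Cavin1 was at 0.80 with method A and 0.31 with method B, Cav2 at 0.74 and -0.01, and Cavin2 at -0.75 and 0.43, so that the direction for Cavin2 turned between methods. Ehd4 had the same direction with both, 0.47 and 0.92. With method A the WT wells were C57BL/6J and with method B they were Ctnnb1flex3/+;Tie2-GFP, and genotype, drug, method and culture batch cannot be told apart here. Each value rests on 2 wells a group, and on WT replicates 5 and 6 being method B, as the methods of the study give them.

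The 3 WT experiments differed in all 8 genes by edgeR's test over experiments (adjusted p from 7.7e-09 for Cavin2 and 1.6e-08 for Cav2 to 0.0010 for Ehd2), where 89.8% of 13050 genes differed. All 8 also differed with transcript length as an offset, where 86% of all genes did. Wells of the same experiment lay close for Cav1 (1382 and 1572, 4240 and 3917, 1943 and 2275 TPM). All of the 8 except Cavin2 were highest in the 150-cycle libraries, and Cavin2 was highest in the method A libraries. By the methods of the study, WT replicates 3 and 4 share method and genotype with replicates 5 and 6. They differ from replicates 5 and 6 in facility, read length and culture experiment, which cannot be told apart. Replicates 1 and 2 share the 36 cycles with replicates 5 and 6 and differ from them in method, genotype and culture experiment, which cannot be told apart either. At 36 cycles Cavin2 was at 77.4 and 110 TPM with method A and at 17.8 and 20.6 TPM with method B.

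Regulators and relatives of caveolae were taken from a list of 17 genes, and the clathrin coat from a list of 13. In the culture comparison 16 of the 17 were tested, 3 were called higher and 1 lower (13.5% and 10.2% over all genes), with a median log2 fold change of 0.06. Src, the kinase that phosphorylates caveolin-1, was at 3.45 (adjusted p = 0.023, edgeR), Flna, the filamin that ties caveolae to actin, at 3.12 (adjusted p = 0.029) and Flot2, which builds flotillin microdomains, at 2.14 (adjusted p = 0.025). With the transcript length offset Flna and Src were no longer called. None of these 3 was called without either acutely isolated library: 0 partners were called higher without the second, and Ehd1, Ehd3 and Plvap (2.02, adjusted p = 0.044, edgeR) without the first. Mfsd2a was the gene called lower, at -7.46 (SE 0.48, adjusted p = 3.3e-05, edgeR). Plvap, which forms the diaphragm of caveolae and fenestrae, was at 0.01 (SE 0.64, adjusted p = 0.99).

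Among the 13 clathrin coat genes 2 were called higher in culture, the adaptor subunits Ap2s1 at 2.58 (adjusted p = 0.00079) and Ap2m1 at 1.55 (adjusted p = 0.011, edgeR), and 1 lower, the endocytic scaffold Eps15 at -1.12 (adjusted p = 0.0078), with a median of 0.29 and the same shares over all genes. Ap2m1 was not called without either acutely isolated library or with summed wells. Eps15 was not called with library size scaling, the transcript length offset or summed wells, and with the offset Ap2a1 and Dab2 were the genes called lower. In ECs against GFP-negative cells, 3 of the 17 partners were called higher, Nos3 at 8.33 (adjusted p = 0.0016), Mfsd2a at 5.23 (adjusted p = 0.0024) and Dnm2 at 2.12 (adjusted p = 0.0059, edgeR). Another 5 were called lower, from Pacsin1 at -6.03 (adjusted p = 0.0047) to Src at -1.90 (adjusted p = 0.031), with Pacsin3, Flot2 and Flna between (8.3% higher and 7.56% lower over all genes). Src was not called with the transcript length offset, all 14 libraries in the fit, the replicate block, or without either GFP-negative library or the second GFP-positive one. Flna was not called with all 14 libraries in the fit. Pacsin3 was not called with the offset or without the second GFP-negative library. Of the clathrin list Dab2 was called higher, at 1.87 (adjusted p = 0.012), but not with the offset or without the second GFP-negative library. Plvap was at 3.34 (SE 1.07, adjusted p = 0.062). In the stabilized comparison no gene of either list was called, and with method A cultures alone Dab2 was called higher (1.29, adjusted p = 0.0010, edgeR), with Mfsd2a at -0.04 (adjusted p = 0.98) and Plvap at 0.50 (adjusted p = 0.66).

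The genes whose log2(TPM + 1) followed Cav1 most closely over the 14 libraries were Tes (Pearson r = 0.997), Acot9 (0.993), Rplp2 (0.993), Anxa2 (0.992) and Rpl37a (0.990). Those nearest to Cavin1 were Mon1b (0.967), Dnajb5 (0.966), Lasp1 (0.964), Tdg (0.958) and Ctsb (0.957). Within the 8 genes the closest pair was Cav1 and Cav2 (0.966), followed by Cavin1 and Ehd2 (0.917), and the most distant was Cavin1 and Cavin2 (0.424). The points share libraries, wells and read format, so these values are a description over 10597 genes with at least 5 TPM in a group mean.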

How the data were processed

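RNA-seq and ATAC-seq files of mouse brain cells were used as deposited. Per the labels and the methods of the study, the authors quantified RNA-seq with Salmon 0.14.0 on GENCODE M21 transcripts (GRCm38) with bias correction, which gives an estimated count, an effective length and a TPM value per transcript. For ATAC-seq the authors aligned with HISAT2 2.1.0, removed duplicates with Picard and called peaks per library with MACS2 2.1.2. The deposited peak columns hold fold enrichment over background, −log10 p and −log10 q, and a display score that the authors' caller writes and that was not used in any comparison.

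Estimated counts were summed per gene and rounded, and TPM was summed per gene, for 21820 protein-coding genes. Counts were tested with edgeR 4.0.16 in R 4.3.3 (expression filter, TMM scaling, quasi-likelihood test, Benjamini-Hochberg adjustment), in place of EBSeq, which the study used. A call needed an adjusted p under 0.05, more than 2-fold and at least 5 TPM in every library of the higher group. Peaks with a fold enrichment over 2 and −log10 q over 2, the limits of the study, were merged within 10000 bases of each gene. The edgeR fit was tried on simulated counts of independent libraries, whereas the wells here came in pairs. The merging of peaks was not tried on simulated data. Alternatives were DESeq2 1.42.0, other scalings and filters, a transcript length offset (from salmon's effective lengths), single libraries or methods left out, summed wells and a replicate block. No pair of replicates agreed within sampling noise (lowest chi-square per degree of freedom 7.82). Same-numbered stabilized and WT cultures deviated together (r from 0.250 to 0.296 in 4 pairs), so the block is given there. For the acutely isolated groups the correlation was -0.02 (against WT cultures) and 0.07 (GFP-positive against GFP-negative).

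The 8 genes and the lists of partners, clathrin coat genes and markers were chosen with earlier results of these data known. Named were all 8 genes, list genes that were called, Mfsd2a and Plvap, the 5 genes most correlated with Cav1 and with Cavin1, and some of the transcripts that take at least 10% of a gene. The transcript start sites were chosen after their values were seen. The cerebrum samples are not analysed here.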

Additional observations from a re-analysis of the deposited data

Results flagged for a closer look

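The difference between stabilized and WT cultures was not the same in method A and method B cultures for 7 of the 8 caveolar genes. The test was the interaction term of edgeR in 36-cycle cultures (2 wells per group and method, with WT replicates 5 and 6 as method B per the methods of the study). The log2 effect with method A minus that with method B was 0.80 for Ehd2 (adjusted p = 0.0091), 0.73 for Cav2 (adjusted p = 0.0023), 0.47 for Cavin1 (adjusted p = 0.0094) and 0.32 for Pacsin2 (adjusted p = 0.025). It was -1.20 for Cavin2 (adjusted p = 0.00025), -0.67 for Cavin3 (adjusted p = 0.0025) and -0.47 for Ehd4 (adjusted p = 0.0079). Over all genes 49.6% passed, and with transcript length as an offset 6 of the 8 and 39.6% of all genes passed. Genotype of the WT wells, drug, method and culture batch cannot be told apart. No single library was flagged by its gap to the nearest value in the 26 cultured groups of 4 or 6 values that were checked. Wells came in pairs, so a pair that lay apart from its group could hardly be flagged. WT replicates 3 and 4 were such a pair for Cavin3, at 515 and 529 TPM in a group with a median of 131 TPM. The acutely isolated groups were not checked.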

How the results depend on the processing

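Of 133 summary results under an alternative, 129 stayed within 1.5 times of the count. These include counts of 0 in both fits, and a count can stay the same while its genes change. Ehd4 was called higher in culture in 7 of 19 settings, although the count of genes called changed little. Of 598 single-gene results 532 kept their direction and their side of the threshold. The number of caveolar genes called higher in culture was 4, ranged from 3 to 4 when single libraries were left out, and was 2 after summing wells within an experiment, where fewer samples enter. With method B cultures alone 1 gene (Cavin2) was called lower, and with method A cultures alone 1 gene (Ehd2) was called higher by stabilization. Gained and lost regions together numbered 12, 11 at the stricter peak limits (0 lost), and 12 to 22 without single libraries, the highest without WT replicate 2, the ATAC-seq library with the fewest WT peaks. In each of these the cause was not tested.

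With the replicate block, Cavin2 in culture was 0.23 and Mfsd2a under stabilization 0.23, both reversed. The block also drops wells, since it keeps only replicate numbers found in both groups. In culture it kept WT replicates 1 and 2, the method A wells, and these without the block also had Cavin2 higher (1.16-fold). In the culture and GFP comparisons, with 2 pairs each, the samples share only a number, and the block called the same number of the 8 genes as the fit without it. The block called 132 genes higher and 55 lower under stabilization against 0 and 0 without it, and changed no other call among the 8 genes. That fit also leaves out WT replicates 5 and 6, and the part of each change was not tested.

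The direction also turned as follows (log2). In culture, Cavin2 was 0.22 with method A, and with the length offset Ehd2 was 0.48 and Ehd4 -0.54. Plvap was -0.078 with DESeq2, -0.31 with method B and -0.82 to 2.02 without single libraries. In ECs against GFP-negative cells, Cavin1 was -0.11 with library size scaling and -0.14 to 0.57 without single libraries. Cavin3 was 0.12 with the length offset and -0.65 to 0.29 without single libraries, and Pacsin2 0.38 and -0.52 to 0.12. Under stabilization with method B, Cav1 was 0.024, Cavin2 0.43, Cavin3 0.11, Pacsin2 -0.18 and Plvap -0.45. Cav2 was 0.74 with method A, and with method as a term Cav2 was 0.36 and Pacsin2 -0.015. Without single libraries Cavin2 was -0.36 to 0.17 and Mfsd2a -0.42 to 0.20. Of the results that turned, Ehd4 in culture was the one that had been called.

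Over all genes, summing wells lowered the number called lower in culture from 1409 to 834, and leaving out either GFP-negative library lowered the number called higher in ECs from 1254 to 669 and 663. Dropping the limits on fold and TPM raised the culture counts to 3292 higher and 2937 lower, and the EC count to 2980 lower. Library size scaling moved the median of all genes in culture from 0.10 to 0.30 and in ECs from -0.06 to -0.44 (log2). With 2 acutely isolated libraries, small differences are not detectable.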
